A study of Triticum aestivum with 12 samples.

Results

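In wheat crowns frozen without cold acclimation, 60 of 128497 gene models carried transcripts that were scarce in every other treatment. They were chosen by raw read counts. Each had at least 10 counts in all 3 libraries of frozen unacclimated crowns (NTGF), a highest NTGF count under 3 times the lowest, and a mean over the other 9 libraries of at most 0.1 of the lowest NTGF count. A further 5 models on 5A, 5B and 5D met these conditions but lie in 3 intervals of neighbouring genes that the choice leaves out. The choice used the NTGF counts against all others, so the levels in NTGF are given as a description, without a test.

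RNA sequencing libraries were made from the winter wheat cultivar Jing411, with 3 biological replicates in each of 4 groups. The NTG group spent 28 days at 20 °C without acclimation, and the LTA group was acclimated for 28 days at 4 °C. NTGF plants had the 20 °C treatment and LTAF plants the 4 °C treatment, each followed by 24 hours at -5 °C. Every plant was Jing411, and no group differs from another by genotype. The NTGF plants therefore fell from a warmer starting temperature than the LTAF plants, and the drop in temperature and the lack of acclimation cannot be told apart. RNA was taken from the crown per the extraction protocol, although the tissue field of the labels has another word. The identifiers carry no names, so the tissue could not be checked against marker genes. Fewer cells of a type and less RNA per cell cannot be told apart in such bulk samples.

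The crown is the stem base of a cereal seedling. It holds the shoot meristem, and its survival decides whether a frozen wheat plant can grow again. Cold acclimation is the gain in freezing tolerance during weeks of low, non-freezing temperature, when plants accumulate protective proteins and sugars and change their membranes. A plant that freezes without it meets ice, cellular dehydration and membrane injury in an unprepared state. Bread wheat carries 3 subgenomes, A, B and D, so that most genes have near-identical copies on corresponding chromosomes.

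The deposited identifiers are paired with no gene name or function, and the RefSeq gene table matched 0 of them. Genes are therefore described by identifier, which gives the chromosome, the order along it and whether the model is high-confidence (HC) or low-confidence (LC, ending in LC). No role is given for any of them. Reads that fit several subgenome copies may have been divided, doubled or dropped between copies, since their treatment is not given in the sources used here.

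Libraries held 17871036 to 21491305 counts. Replicates differed by more than sampling noise in every group, with a chi-square per gene of 4.65 to 36.9 where sampling alone gives about 1. LTAF replicates 1 and 3 lay closest to each other at 4.65, while LTAF replicate 2 lay at 26.8 and 34.4 from them. The NTGF pairs lay at 28.1 to 36.9, and the NTG and LTA pairs at 5.39 to 10.8. Counts, sums and shares that involve LTAF are therefore also given without LTAF replicate 2, and the values of single genes without it are given together.

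The label of these genes, present only in frozen unacclimated crowns, went beyond the counts. Of the 60 genes, 59 had at least 1 count elsewhere. Only TraesCS1A01G368400 was at 0 in all 9 other libraries, with 14, 11 and 11 counts in NTGF, which bounds its NTGF level at 15.7-fold or more above NTG and 10.9-fold or more above LTAF. These bounds use a floor of 3 counts over a group, and, like the counting intervals given below, they cover counting error only. The frozen acclimated crowns held counts for 58 of the genes, and 38 had a count in every LTAF library. NTG held counts for 48 genes and LTA for 37, with 18 and 8 genes present in every library of the group.

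**Figure D1:**
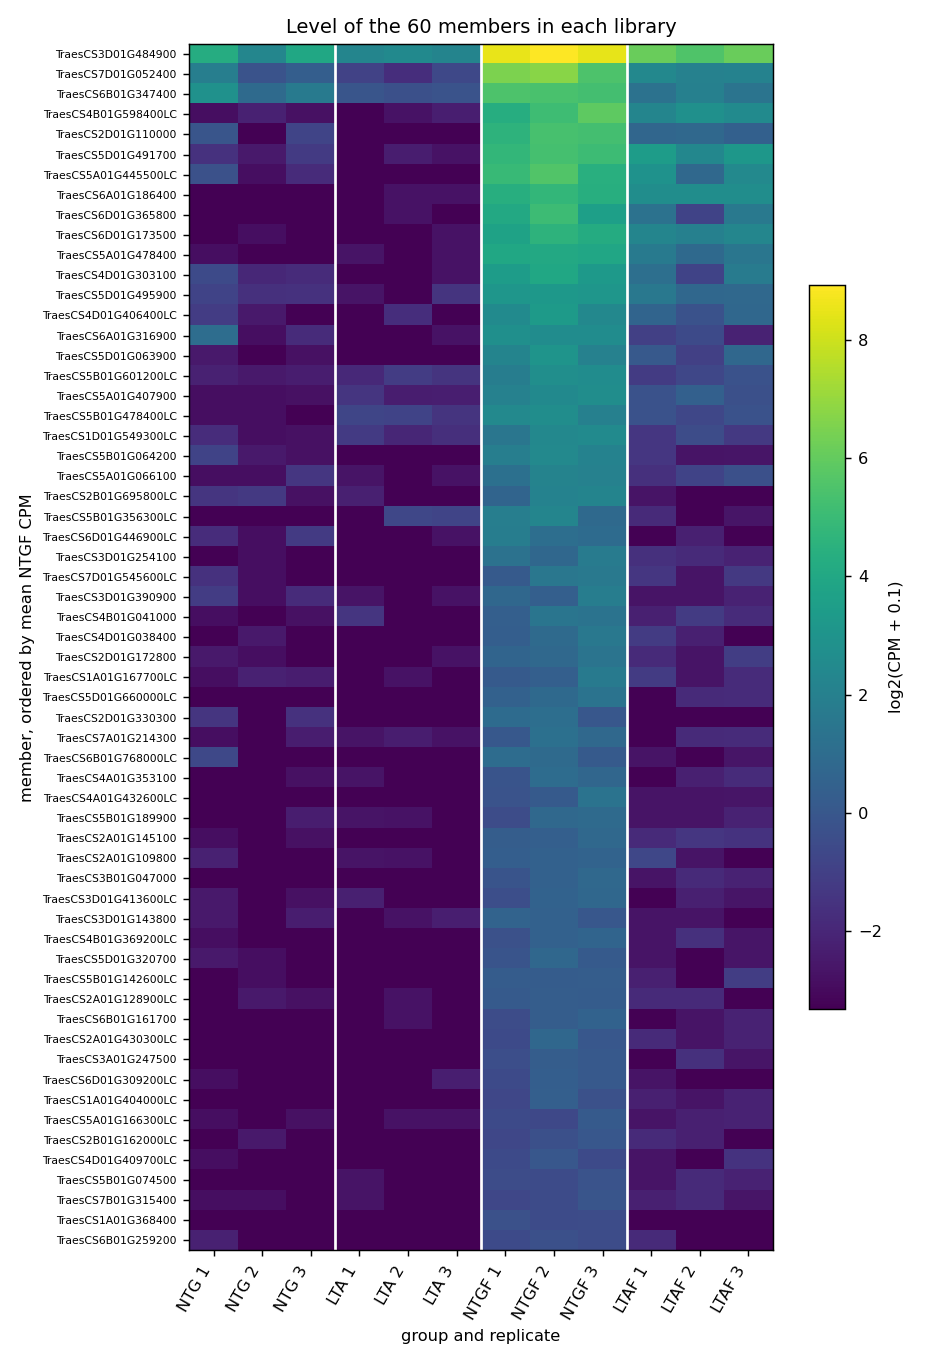
Level of each of the 60 genes (rows, by mean NTGF level) in each of the 12 libraries (columns, by group and replicate), as log2 of the library-scaled count (CPM) plus 0.1. NTGF columns are brightest by construction, and the LTAF columns show a lower level for most of the genes, 58 of which had a count there.

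Levels within NTGF spanned a wide range. In CPM, the count per 1000000 of the library size after TMM adjustment, the mean NTGF level ran from 0.624 to 404.8 with a median of 1.89. One gene lay above 100 CPM, 11 lay between 10 and 100, 38 between 1 and 10, and 10 below 1. The HC genes had a median of 2.11 CPM and the LC genes 1.69. The ratio of the highest to the lowest NTGF count ran from 1.05 to 2.99 with a median of 1.83, where the choice allowed values under 3. NTGF replicate 1 held the highest CPM for 6 of the 60 genes (10%), against 34.7% of all tested genes.

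TraesCS3D01G484900 held close to as many counts as all the others combined. It had 7291, 9129 and 6320 counts in NTGF, which is 45.4% to 47.9% of the counts of the 60 genes there. In LTAF it had 1215, 821 and 1125 counts. NTG held 495, 125 and 326, and LTA 86, 110 and 85. The order of the group means was NTGF, LTAF, NTG and LTA, at 404.8 ± 70.7, 62.0 ± 13.2, 13.05 ± 7.38 and 4.89 ± 0.536 CPM (SD, n = 3 each). The LTAF libraries lay above all NTG and LTA libraries, while NTG replicate 2, at 4.79 CPM, fell within the LTA range of 4.46 to 5.49 CPM.

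Summed over the 60 genes, the level was 868.1 ± 150.1 CPM in NTGF, 118.6 ± 22.1 in LTAF, 23.8 ± 14.7 in NTG and 8.48 ± 0.313 in LTA (SD, n = 3). Without TraesCS3D01G484900 the sums were 463.3 ± 80.6, 56.6 ± 9.01, 10.8 ± 7.98 and 3.58 ± 0.243. LTAF replicate 2 was the lowest of its group, and the mean of the other LTAF libraries was 131.4 CPM. The LTA libraries were nearly alike, whereas the NTG libraries spread from 9.39 to 38.8 CPM, with replicate 1 highest. NTG replicate 1 held the highest NTG level for 28 of the 48 genes with a single highest NTG library (58.3%), against 35.3% of all tested genes. Its part in the comparisons with NTG is given beside them.

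**Figure D2:**
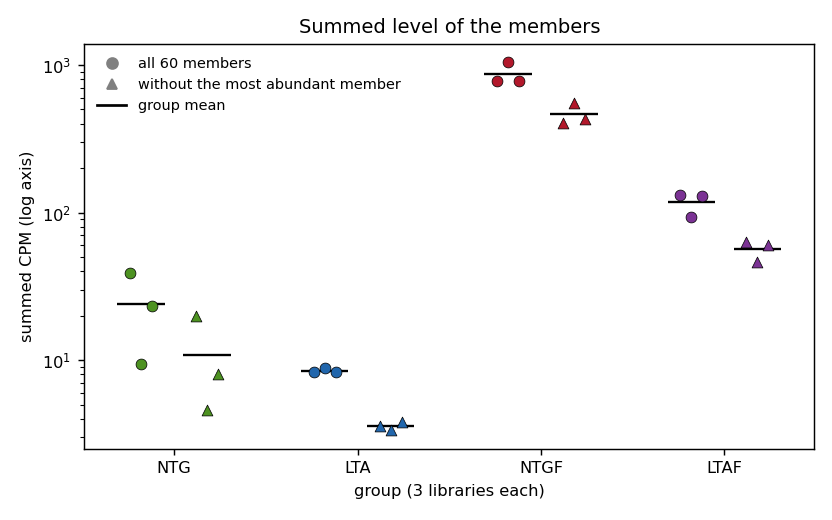
Summed level in CPM (log axis) of all 60 genes (circles) and of all but the most abundant one (triangles) in each library, by group, with the group mean as a bar. The 3 LTAF libraries, at 93.2 to 132.5 CPM for all genes, lay between NTGF and both unfrozen groups, and NTG spread more widely than LTA.

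Relative to NTGF, LTAF was the highest of the other groups for 48 genes, NTG for 9 and LTA for 2. The mean LTAF level was a median of 9.93% of the NTGF level and at most 28.0% (9.42% and 28.8% without LTAF replicate 2). The medians were 1.95% for NTG and 0.252% for LTA, with highest values of 11.6% and 9.71%. The choice caps these shares: a mean of 0.1 over 9 libraries lets 1 group alone reach 30% of the lowest NTGF count. Genes just inside the threshold were TraesCS7B01G315400 and TraesCS7D01G545600LC, both at 0.1. Just outside lay TraesCS5B01G673600LC at 0.101 and TraesCS1B01G194500 at 0.103. The latter had 409, 412 and 295 counts in NTGF and 97, 46 and 120 in LTAF, the same graded form as many of the 60 genes.

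**Figure D3:**
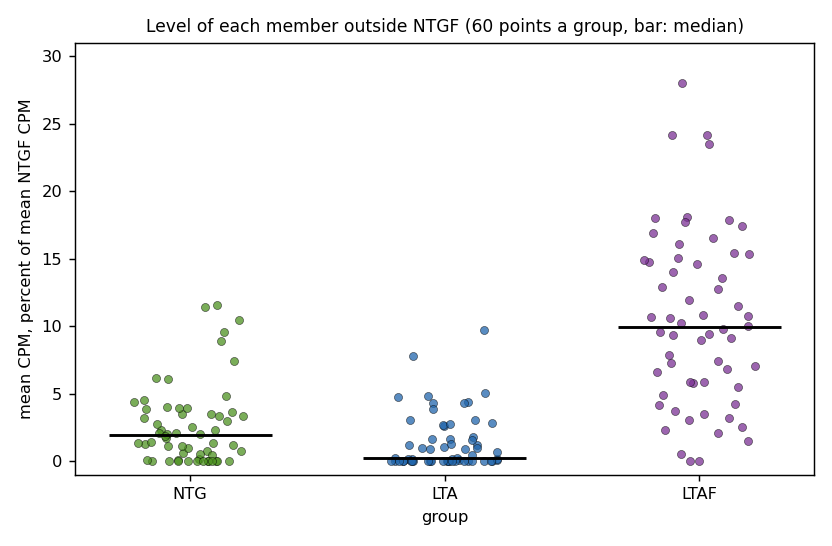
Mean level of each of the 60 genes in NTG, LTA and LTAF as a percent of its mean NTGF level in CPM, with the median as a bar. LTAF values reached 28.0% with a median of 9.93%, and the medians of NTG and LTA were 1.95% and 0.252%, under a cap that the choice of genes sets.

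The comparison of LTAF with LTA shows freezing after acclimation. The choice limited the mean of these libraries but used no difference between them. Of the 60 genes, 56 passed the filter on low counts and were tested (35 HC and 21 LC). Many passed only through their NTGF counts, while the more abundant ones, such as TraesCS6A01G186400, also had enough LTAF counts. edgeR's quasi-likelihood test called 19 of the 56 higher in LTAF than in LTA and 0 lower at an adjusted p under 0.05. Over all 69693 tested genes, 3.99% were called higher and 1.92% lower. At an unadjusted p under 0.05, 33 of the genes were higher and 0 lower, and DESeq2 called 0 lower as well. A fall could not be seen in the 23 of the 60 genes that had no count in LTA. In each of the 19 genes every LTAF library lay above every LTA library. This held for 32 of the 56 tested genes (57.1%), where 13.8% of all tested genes showed it. Many of these genes entered the test only through NTGF, and the choice capped the LTA and LTAF levels of all of them. Their shares and medians therefore stand beside those of all tested genes as a description. They are not evidence that these genes differ from other genes.

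The fitted log2 fold changes of the 56 genes had a median of 3.42, against -0.03 over all tested genes. Many rest on an LTA group without a count. With 15 such genes set to their bound, and 12 with both groups at or under 3 counts set to 0, the median was 1.58. By class, 16 of the 19 called genes were HC and 3 LC. Calls were more frequent among genes with higher NTGF levels, where the cap set by the choice leaves room for more LTAF counts. This difference is therefore partly fixed by the choice. Among the 28 tested genes with the higher NTGF levels 18 were called, and among the other 28, which lay at 0.624 to 2.09 CPM in NTGF, 1 was. That gene, TraesCS2A01G145100, had 3, 5 and 4 counts in LTAF and none in LTA (edgeR adjusted p = 0.0203). Its call ended without LTAF replicate 3 (adjusted p = 0.0614) or any 1 LTA library (0.0582 to 0.0675). The other 27 did not pass the test against LTA. In LTAF against NTG, 5 of the 28 genes with the lower NTGF levels were called. These calls rest on few counts, with totals of 6 to 12 in LTAF and 0 to 2 in NTG.

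All 10 genes with the highest NTGF levels were called higher in LTAF than in LTA. TraesCS3D01G484900, described above, rose by 3.66 ± 0.42 on the log2 scale (SE; edgeR adjusted p = 0.000886), 12.6 times the LTA level (95% counting interval 11.1 to 14.3). TraesCS7D01G052400 lay lower than TraesCS3D01G484900 in every group. It had 1786, 2041 and 799 counts in NTGF, 91, 71 and 68 in LTAF, 97, 20 and 25 in NTG, and 8, 4 and 10 in LTA. The LTAF libraries lay above all LTA libraries at a ratio of 11.7 (7.55 to 19.1; edgeR adjusted p = 0.00984).

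TraesCS6A01G186400 was nearly without counts in both unfrozen groups and present in both frozen ones. It had 396, 511 and 365 counts in NTGF and 112, 111 and 102 in LTAF, with 0, 1 and 1 in LTA and none in NTG. Scaled to library size, the LTAF libraries were almost equal, at 6.35 ± 0.0301 CPM (SD, n = 3). LTAF exceeded LTA at a ratio of 181.9 (49.96 to 1509; edgeR adjusted p = 2.12e-05), and NTG by at least 155.4-fold. TraesCS6D01G173500 had a like form, with 259, 452 and 327 counts in NTGF, 82, 69 and 78 in LTAF, and 1 count in each of LTA replicate 3 and NTG replicate 2. Its LTAF to LTA ratio of 256.4 (45.6 to 10170.2; edgeR adjusted p = 5.38e-05) was 166.7 without LTA replicate 2 and at least 57.0 once LTA replicate 3, the library with the count, was left out. LTAF reached 28.0% of the NTGF level for TraesCS6A01G186400 and 24.2% for TraesCS6D01G173500.

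TraesCS5D01G491700 and TraesCS4B01G598400LC also had more than 50 counts in every library of frozen acclimated crowns. TraesCS5D01G491700 had 547, 741 and 602 counts in NTGF, 189, 87 and 140 in LTAF, 6, 2 and 7 in NTG, and 0, 2 and 1 in LTA. LTAF replicate 2 was the lowest LTAF library but lay above every library of NTG and LTA. The LTAF to LTA ratio was 155.2 (52.8 to 755.9; edgeR adjusted p = 7.29e-05), and 302.9 without LTA replicate 2. TraesCS4B01G598400LC had 388, 644 and 1034 counts in NTGF, 81, 122 and 92 in LTAF, and 0 to 3 in the libraries of NTG and LTA. Here LTAF replicate 2 was the highest, and the ratio was 110.1 (37.3 to 536.9; edgeR adjusted p = 0.000294), rising to 220.4 without LTA replicate 3.

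Among the 10 genes with the highest NTGF levels, TraesCS5A01G445500LC and TraesCS2D01G110000 had no count in LTA but some in NTG. Several of the less abundant genes showed the same. TraesCS5A01G445500LC had 603, 910 and 369 counts in NTGF, 133, 29 and 86 in LTAF, and 19, 1 and 4 in NTG. It was at least 92.6-fold higher in LTAF than in LTA (edgeR adjusted p = 0.00982), or at least 60.2-fold without LTA replicate 2. TraesCS2D01G110000 had 478, 764 and 689 counts in NTGF, 27, 29 and 20 in LTAF, and 22, 0 and 10 in NTG. It was at least 28.4-fold higher in LTAF than in LTA (edgeR adjusted p = 0.0204), or at least 18.4-fold without LTA replicate 2. This call ended without any 1 LTA library (adjusted p 0.0595 to 0.0681) without LTAF replicate 1 or 3 (0.0654 and 0.0539), and without the filter on low counts (0.0877).

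The calls of TraesCS6D01G365800 and TraesCS6B01G347400 also ended in several alternatives. TraesCS6D01G365800 had 325, 628 and 210 counts in NTGF and 41, 8 and 48 in LTAF, with 1 count in LTA replicate 2 and none in NTG. LTAF replicate 2 was again the lowest of its group. The LTAF to LTA ratio of 108.6 (19.04 to 4333; edgeR adjusted p = 0.0194) became at least 23.5 without LTA replicate 2. The call ended without any 1 LTA library or without LTAF replicate 1 or 3 (adjusted p 0.0662 to 0.0899), and without the filter on low counts (0.0764). TraesCS6B01G347400 had 900, 795 and 688 counts in NTGF, 41, 68 and 40 in LTAF, 187, 47 and 67 in NTG, and 15, 14 and 15 in LTA. It was the one gene of the 10 with a higher mean in NTG than in LTAF, at 4.04 ± 2.80 and 2.90 ± 0.849 CPM (SD, n = 3), and these libraries overlapped. Its LTAF to LTA ratio was 3.79 (2.69 to 5.44; edgeR adjusted p = 0.0356), and the call ended without any 1 library of either group (adjusted p 0.0715 to 0.122) and without the filter on low counts (0.0810).

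**Figure D4:**
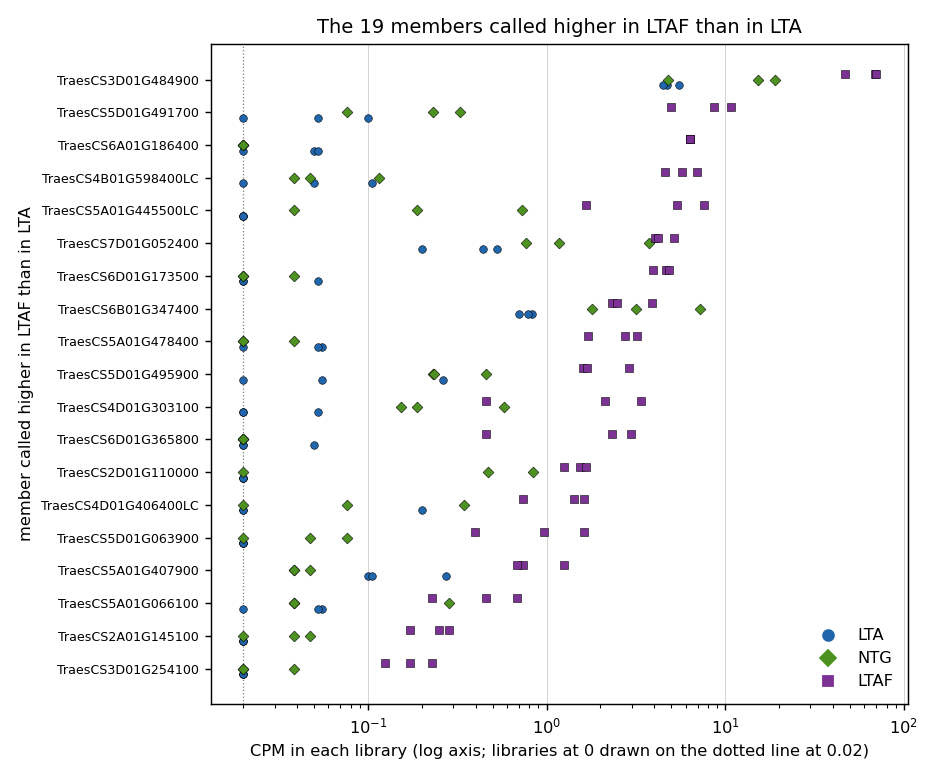
Level in CPM (log axis) in each LTA, NTG and LTAF library of the 19 genes called higher in LTAF than in LTA, by mean LTAF level. Libraries at 0 are drawn on the dotted line. In every gene the 3 LTAF points (squares) lie to the right of the 3 LTA points (circles), and several NTG points (diamonds) lie between them or, for TraesCS6B01G347400, beyond them.

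Leaving out 1 library changed the number of these calls but not their direction. Without LTAF replicate 2, 17 genes were called higher, with 6.06% of all tested genes called higher and 5.33% lower. In 36 of the 56 genes the LTAF libraries then lay above all LTA libraries. The ratios or bounds of the 10 genes with the highest NTGF levels moved by less than 1.5 times without it, and among these genes the call of TraesCS6B01G347400 alone ended. Without LTAF replicate 3, LTA replicate 1 or LTA replicate 3 there were 12, and 11 of the 19 genes were called in every alternative tried.

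LTA against NTG compares unfrozen crowns after 28 days at 4 °C and at 20 °C. Acclimation and the growth temperature at sampling cannot be told apart in it. edgeR called 2 of the 56 genes higher in LTA and 6 lower, where 20% and 18.1% of all tested genes were called. At an unadjusted p under 0.05 these were 4 and 12. Without NTG replicate 1 the calls were 1 higher and 1 lower. Without NTG replicate 2 they were 1 and 10, and without LTA replicate 1, 2 or 3 the lower calls numbered 2, 2 and 3. Over the 56 genes, 28 had at most 3 counts in either group, so that a difference was not detectable at this depth.

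The genes called lower in LTA than in NTG were among the more abundant. TraesCS6B01G347400 fell by 2.39 ± 0.45 on the log2 scale (SE; edgeR adjusted p = 0.00184), and its 3 LTA libraries lay below all NTG libraries. TraesCS3D01G484900 fell by 1.41 ± 0.40 (edgeR adjusted p = 0.0159), but by 1.04 without NTG replicate 1, which ended the call (adjusted p = 0.0674). It also ended without NTG replicate 3, LTA replicate 1 or LTA replicate 3 (adjusted p 0.0519 to 0.0577). TraesCS7D01G052400 fell by 2.28 ± 0.65 (edgeR adjusted p = 0.0181), and by 1.31 without NTG replicate 1 (adjusted p = 0.0663). Its call ended without LTA replicate 2 as well (adjusted p = 0.0698), and without the filter on low counts (0.0592). TraesCS2D01G110000, TraesCS6A01G316900 and TraesCS5B01G064200 were the others called lower. Without the filter on low counts the calls of TraesCS2D01G110000 and TraesCS6A01G316900 ended (adjusted p 0.105 and 0.0884). Much of their NTG signal lay in replicate 1, with 22, 51 and 12 counts there against 0 to 10 in NTG replicates 2 and 3.

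Both genes called higher in LTA than in NTG were LC models on 5B, named here after their values were seen. TraesCS5B01G478400LC had 9, 9 and 5 counts in LTA and 1, 1 and 0 in NTG, a ratio of 14.7 (3.64 to 128.9; edgeR adjusted p = 0.000649). Its LTAF level was 0.667 ± 0.133 CPM and its LTA level 0.402 ± 0.123 (SD, n = 3; edgeR adjusted p = 0.320). TraesCS5B01G356300LC had 0, 10 and 9 counts in LTA and none in NTG, at least 8.11-fold higher (edgeR adjusted p = 0.0231). That call ended without LTA replicate 2 or 3 or NTG replicate 1 or 2 (adjusted p 0.0526 to 0.0677).

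LTAF against NTG compares frozen acclimated crowns with crowns that met no cold, and it shares its libraries with the 2 comparisons above. edgeR called 23 of the 56 genes higher and 0 lower in LTAF, against 23.5% and 21.5% of all tested genes. At an unadjusted p under 0.05 there were 30 and 2, and DESeq2 called 2 lower. The fitted median was 2.39, or 1.64 with bounds, against -0.06 over all tested genes. In 25 of the 56 genes (44.6%) every LTAF library lay above every NTG library, against 28% of all tested genes. Without LTAF replicate 2, 21 of the 56 genes were called higher and 1 lower, against 21.9% and 26.0% of all tested genes. As above, these shares are a description. TraesCS7D01G052400 shows the weight of NTG replicate 1: LTAF was 1.24 ± 0.52 above NTG on the log2 scale (SE; edgeR adjusted p = 0.0722), and 2.21 above it without that library (adjusted p = 0.00252).

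The 9 genes with NTG as the highest of the other groups were set apart by their NTG mean, which 1 high library can raise. In 6 of them NTG replicate 1 alone held the most NTG counts, and in TraesCS3D01G143800, with 2, 0 and 2 counts, it tied with NTG replicate 3. Among all the chosen genes NTG replicate 1 was highest in CPM in 28 of the 48 with a single highest NTG library. Together the 9 genes had 294 counts in NTG replicate 1, 60 in replicate 2 and 91 in replicate 3. Most of these came from TraesCS6B01G347400, with 187, 47 and 67. TraesCS6A01G316900 had 51, 1 and 4 NTG counts beside 131, 113 and 110 in NTGF. TraesCS2D01G330300 had 7, 0 and 5 in NTG, 36, 39 and 16 in NTGF, and none in LTA or LTAF.

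The 60 genes were spread over 20 of the 21 chromosomes, and genes of the same class never lay side by side. HC and LC models were ordered separately, so an HC gene beside an LC gene was not looked for. With gaps of up to 3 models of the same class allowed, 0 stretches of 2 or more were found. HC models made up 60% of them and 64.1% of the table. The table includes models with few or no counts, which the choice could not take. Among the genes that passed the filter, 35 of the 56 chosen ones were HC, against 57596 of all 69693. Homoeologous group 5 chromosomes held 17 of the 60 (28.3%) and 15.5% of the models, after the 5 genes in the left-out intervals were removed from them. The D subgenome held 24 (40%) and 31.7% of the models, and A and B held 18 each. These shares were not tested.

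Some of the genes carry close numbers on corresponding chromosomes, but the files do not say which models are subgenome copies of each other. TraesCS5A01G066100, TraesCS5B01G064200 and TraesCS5D01G063900, chosen after their values were seen, had 3.58 ± 1.20, 4.43 ± 0.866 and 5.49 ± 2.08 CPM in NTGF (SD, n = 3). Their NTGF ranges overlapped. In LTAF the 5D model had 17, 7 and 26 counts, the 5A model 4, 8 and 11, and the 5B model 5, 1 and 1. Against LTA the 5D model rose at least 18.7-fold (edgeR adjusted p = 0.00739), or at least 12.1-fold without LTA replicate 2. The 5A model rose to 12.9 times the LTA level (3.18 to 112.7; edgeR adjusted p = 0.0486), and to 8.37 times without LTA replicate 2. Its call ended when any 1 LTA or LTAF library was left out (adjusted p 0.0530 to 0.159), and with scaling by library totals (0.0503). The 5B model did not pass the test (edgeR adjusted p = 0.178). Whether these responses differ between the models was not tested.

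Genes next to the 60 were examined in NTGF against NTG, since the choice did not use them. The neighbours were the 5 nearest tested models of the same class on each side, 587 in all. Of these, edgeR called 112 higher in NTGF (19.1%) and 69 lower (11.8%), where 14.2% and 11.7% of all tested genes were called. Of the HC neighbours 21.4% were higher and 8.61% lower, against 14.9% and 9.76% of all tested HC genes. Of the LC neighbours 15.4% were higher and 16.7% lower, against 10.9% and 20.7% of all tested LC genes. At a distance of 1 model 33 of 119 were higher (27.7%). At 2, 3, 4 and 5 models the shares were 17.1%, 21.4%, 12.8% and 16.2%, which do not fall steadily. Without NTG replicate 1 the higher and lower calls numbered 72 and 41, and without NTG replicate 2 they were 63 and 42. Library totals lowered the median of all tested genes by 0.31 on the log2 scale. With that scaling 69 neighbours were higher (11.8%) and 109 lower (18.6%), against 6.58% and 20.9% of all tested genes.

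**Figure D5:**
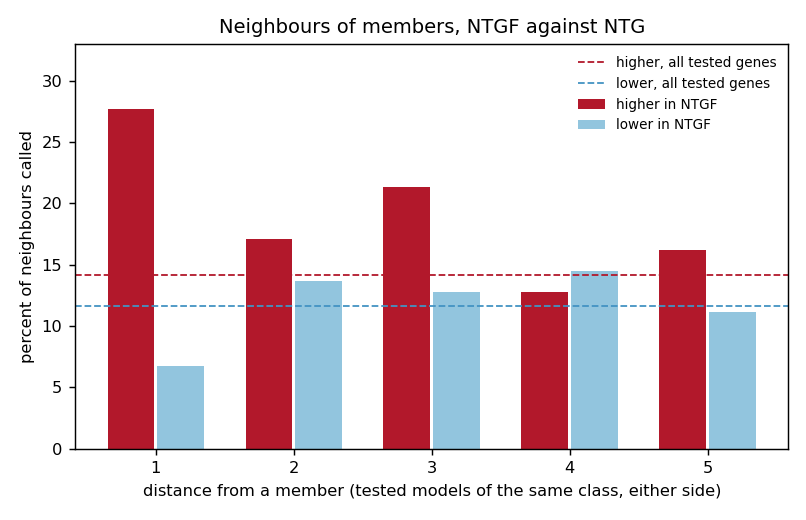
Percent of tested neighbours called higher or lower in NTGF than in NTG (bars) by distance from one of the 60 genes, counted in tested models of the same class on either side, with 117 to 119 neighbours at each distance. Dashed lines mark the 14.2% and 11.7% of all tested genes. At 1 model the share of higher calls was 27.7%. With scaling by library totals, which is not drawn, 11.8% of neighbours were higher and 18.6% lower, against 6.58% and 20.9% of all tested genes.

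The neighbours were unevenly shared. TraesCS5A01G478400 had 8 of 10 neighbours called higher and 0 lower, and TraesCS5D01G491700 had 7 and 2. Without their neighbours 97 of 567 were called higher (17.1%), and 29 of 115 at a distance of 1 model (25.2%). TraesCS5A01G478400 itself had 301, 316 and 270 counts in NTGF, 56, 30 and 44 in LTAF, and at most 1 in any NTG or LTA library. Its LTAF to LTA ratio was 72.8 (19.7 to 607.3; edgeR adjusted p = 0.000132), and it was 47.3 without LTA replicate 2. Of the 60 genes, 11 had no neighbour called higher and 16 had 3 or more. In LTAF against LTA, 43 of the 587 neighbours were higher (7.33%) and 10 lower (1.70%), against 3.99% and 1.92% of all tested genes. Without LTAF replicate 2 these were 49 (8.35%) and 36 (6.13%), against 6.06% and 5.33%. With all libraries but without the neighbours of TraesCS5A01G478400 and TraesCS5D01G491700, 33 of 567 were higher in LTAF than in LTA (5.82%) and 10 lower (1.76%).

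The opposite pattern was sought with the same factor: at least 10 counts in each of the 9 other libraries and an NTGF mean of at most 0.1 of the lowest of them. It was met by 90 models, 48 HC and 42 LC. Of the 77 on named chromosomes, 0 lay within 5 models of one of the 60 genes and 1 within 10, where 0.474% and 0.941% of all placed models did. Counts this small show no difference in either direction. Models missing in the same way from NTG, LTA or LTAF alone numbered 56, 38 and 1. The conditions that gave the 60 genes were also applied to the other groups in place of NTGF, with the left-out intervals kept in. They found 240 models in NTG, 8 in LTA and 42 in LTAF, beside 65 in NTGF with those intervals kept in. With counts scaled to TMM-adjusted library sizes, NTG, LTA and LTAF had 136, 5 and 54. With that scaling the choice found 55 models in NTGF, 51 of them among the 60. The choice leaves the intervals out, so this number cannot be set directly against those of the other groups.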

How the data were processed

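Per the file headers, the deposited table holds whole-number read counts for each gene model, unnormalized, and its 12 columns were matched to libraries by name. Aligner, counting program, genome build and annotation: not given in the sources used here. The genes and lists were chosen with earlier results of these data known. Identifiers were split into chromosome, order and class. After a filterByExpr filter with a minimum count of 10, 69693 models remained, with at least 99.4% of each library's counts. They were scaled with TMM and fitted over all 12 libraries in edgeR 4.0.16 (R 4.3.3), as group means, with robust quasi-likelihood F tests and Benjamini-Hochberg adjustment over all tested genes. DESeq2 1.42.0 was an alternative. Standard errors were derived from the fitted fold change and its F statistic. Ratios are pooled counts per effective library size with exact 95% binomial intervals. The labels name no molecular identifiers, so the intervals cover counting error alone. The fits were tested on simulated counts with 200 changed genes. The labels do not say that the replicates came from separate growth trials, so p-values measure the spread between these samples. Genes named were the 10 with the highest NTGF level, the up to 6 with the highest LTAF level among those called in LTAF against LTA (all within the 10), the genes at 0 elsewhere and those nearest the threshold. Others were named after their values were seen.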

Additional observations from a re-analysis of the deposited data

How the results depend on the processing

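The number of genes chosen follows its thresholds. It was 106 and 36 with a minimum count of 5 and 20, 14 and 170 with the mean of the others at most 0.05 and 0.2, 35 with a spread under 2 times, and 51 to 162 with 1 library left out, the values of 97, 105 and 162 coming from NTGF replicates 2, 3 and 1. The genes missing only in NTGF numbered 52 and 177 at 0.05 and 0.2, and 90 to 109 with 1 library left out. Counts scaled to TMM-adjusted library sizes, an alternative chosen after seeing the data, changed the sets of the other groups to 136 (NTG) and 5 (LTA).

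Higher calls in LTAF against LTA ranged from 12 to 19 with 1 library left out, and lower calls stayed at 0. In LTA against NTG they ranged from 1 to 2 higher and 1 to 10 lower, and library totals gave 11 lower. That scaling dropped the median of all tested genes by 0.34 on the log2 scale there, and by 0.43 in LTAF against NTG. In LTAF against NTG the lower calls ranged from 0 to 1, with 2 by DESeq2, 2 with library totals and 1 without the filter, and higher calls from 20 to 24, counted among the genes that passed the filter in each fit. Neighbours called in NTGF against NTG ranged from 63 to 114 higher and 41 to 81 lower. They were 69 and 109 with library totals, 53 and 24 of 236 (22.5% and 10.2%) with 2 models on each side, and 196 and 142 of 1172 (16.7% and 12.1%) with 10.

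Without the filter on low counts, 14 of the 19 genes called higher in LTAF than in LTA were called; TraesCS5A01G445500LC had an adjusted p of 0.0546 there. Same-numbered libraries did not deviate together in every pair (correlations from -0.362 to 0.201). With the replicate block the higher calls were 14 in LTAF against LTA and 22 in LTAF against NTG, with 2 higher and 5 lower in LTA against NTG and 89 higher and 53 lower neighbours. Under the block TraesCS2D01G110000, TraesCS6D01G365800 and TraesCS6B01G347400 had adjusted p of 0.0579, 0.0554 and 0.0516 in LTAF against LTA.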
